A study of Mus musculus with 48 samples.

Results

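Fibroblastic reticular cells (FRCs) were compared with double negative (DN) stromal cells of the skin-draining lymph nodes (LNs) of naive mice. The samples were taken by the cell type and the naive state in their titles, which gave 3 replicates of naive FRCs and 3 replicates of naive DN cells, 6 of the 24 replicates of the series. Each replicate was hybridized on 2 strips of an Illumina mouse bead array, so that 12 of 48 strips entered the comparison. The series holds 8 groups, namely FRCs, DN cells and 2 endothelial cell types, each from naive mice and from mice injected with Eμ-*Myc* lymphoma cells, and it was designed to set the stromal cell types against each other and tumor against naive mice.

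The naive mice are labelled as wild-type controls that received no tumor cells, with no age in the labels. The methods of the study name C57BL/6N mice. They also give both sexes and an age range for all experiments, without values for single samples. Cervical, axillary, brachial and inguinal LNs were digested, leukocytes were depleted with CD45 beads, and cells were sorted to a stated purity of more than 95%. FRCs were gated as CD31- gp38+ cells, where gp38 is podoplanin, and DN cells carried neither marker. The DN gate is thus defined by absence and can hold several cell types. Cells stained for CD45 or Ter119 and dead cells were gated out. The RNA of 4 to 6 sorts was pooled to reach 80 ng for a sample. Replicates are called biological, without a statement that they came from separate animals, so that the p-values measure the spread between these samples only. The sample titles name each cell type together with Endothel, FRCs and DN cells included. All FRC strips lay on one slide and all DN strips on another, so that cell type and slide cannot be told apart in any result below.

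FRCs are the fibroblasts that build the conduit network of the LN. They secrete the chemokines CCL19 and CCL21, which guide T cells and dendritic cells, and interleukin 7, which keeps T cells alive, and they wrap collagen fibers in basement membrane. The DN gate of LN stroma is less defined and is known to include pericytes, contractile cells around small vessels.

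Each strip carried 982785 to 1033759 beads in FRCs and 863780 to 963947 beads in DN cells. The median number of beads per probe code was 21 to 22 in FRCs and 18 to 20 in DN cells. Values are log2 signals after quantile normalization over all 48 strips, with the mean of both strips taken for each replicate. The background level of the arrays was 5.57, set 3 robust SDs above the mode of dim probes. A probe was kept when the mean of FRCs or of DN cells exceeded this level. Each gene was represented by its brightest kept probe, so that 12232 genes were tested. A gene at background in every replicate of a group thus entered only through the other group and could be higher only there. The median SD between replicates was 0.18 in FRCs and 0.39 in DN cells.

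DN replicate 2 stood apart. Over all probes it correlated with DN replicates 1 and 3 at r = 0.953 and 0.955, while DN replicates 1 and 3 correlated with each other at 0.982. Its correlation with the FRC replicates was 0.962 to 0.963, against 0.912 to 0.929 for DN replicates 1 and 3. The counts of each gene list are therefore given with and without it. Leaving it out raised the number of calls, while leaving out any other replicate lowered it. In the adventitial fibroblast list below, 19 genes were higher in FRCs with all replicates. The number was 12, 11 or 12 without FRC replicate 1, 2 or 3 and 12 or 16 without DN replicate 1 or 3. Without DN replicate 2, 3019 genes were higher in FRCs and 3289 were higher in DN cells, 24.3% and 26.4% of 12442 genes tested. Among genes higher in FRCs without it, its value lay nearer to the FRC mean than to that of the other DN replicates in 1863 of 3019 (61.7%), and it exceeded every FRC replicate in 381. Of the genes higher in DN cells without it, 3217 were among the 12232 tested with all replicates, and its value there lay nearer to the FRC mean in 2026 (63.0%).

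The gate was visible in *Pdpn*, which encodes podoplanin. It had log2 signals of 14.31, 14.41 and 14.49 in the 3 FRC replicates and 10.56, 13.43 and 9.75 in the 3 DN replicates. All FRC replicates were above all DN replicates, and DN replicate 2 lay within 1 log2 unit of the lowest FRC replicate. *Pdpn* was higher in FRCs by 3.16 (SE 0.88, adjusted p = 0.049, limma with Benjamini-Hochberg adjustment over all genes, as for every adjusted p here). Without DN replicate 2 the difference was 4.25 (adjusted p = 9.3e-05). With any other single replicate left out, *Pdpn* did not pass. It also did not pass with strips centred on their medians, with the second strip alone or with the replicate number as a block. The same held without a filter on dim probes and in an unmoderated test. *Pecam1*, which encodes CD31 and is excluded by both gates, had 8.76, 5.81 and 7.35 in FRCs and 7.61, 9.15 and 5.74 in DN cells, with overlapping groups and a difference of -0.19 (95% interval -2.63 to 2.25, adjusted p = 0.90). Its mean was 14.60 in naive blood endothelial cells and 13.62 in naive lymphatic endothelial cells. *Ptprc*, which encodes CD45, was not above the background level in either group and was not tested.

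**Figure D1:**
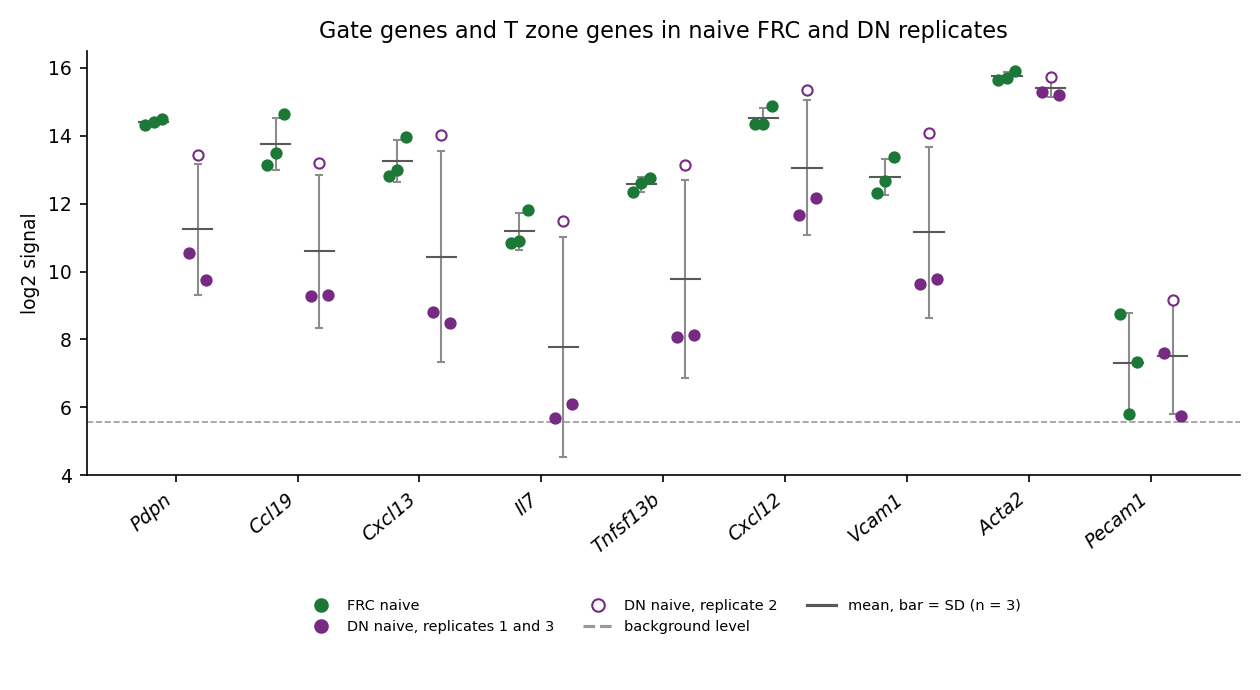
Log2 signal of the gate genes Pdpn and Pecam1, of 6 T zone and B zone reticular cell genes and of Acta2 in each naive FRC replicate (green, left) and DN replicate (purple, right; replicate 2 open), with group mean and SD (n = 3) and the background level as a dashed line. DN replicate 2 lay at or near the FRC replicates for the chemokine and survival genes, while DN replicates 1 and 3 lay far below them.

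Of the FRC markers, *Ccl19* had 13.14, 13.50 and 14.63 in FRCs and 9.29, 13.20 and 9.30 in DN cells. DN replicate 2 exceeded the lowest FRC replicate, so that the groups overlapped. The difference of 3.16 (SE 1.08, 95% interval 0.59 to 5.73) had an adjusted p of 0.082, and without DN replicate 2 it was 4.46 (adjusted p = 3.6e-04). *Acta2*, the smooth muscle actin of FRCs and pericytes, had 15.64, 15.71 and 15.90 in FRCs and 15.30, 15.73 and 15.20 in DN cells. Its difference of 0.34 (95% interval -0.16 to 0.84) had an adjusted p of 0.26 and its groups overlapped through DN replicate 2, without which the difference was 0.50 (adjusted p = 0.043). Both groups lay close to the highest deposited value of 16.153, so that a small difference there does not show equal expression. In these bulk samples, fewer cells of a type and less RNA per cell cannot be told apart.

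Of 12232 genes, 1295 were higher in FRCs (10.6%) and 1147 were higher in DN cells (9.38%). At least a 2-fold difference was seen for 1047 of the genes higher in FRCs and 898 of those higher in DN cells, and at least an 8-fold difference for 174 and 135. For 131 of the genes higher in FRCs no DN replicate was above background, and for 103 of those higher in DN cells no FRC replicate was. The median difference over all genes was -0.05. The FRC and DN replicates did not overlap in 45.5% of all genes tested. Leaving out FRC replicate 1, 2 or 3 gave 435, 398 or 625 genes higher in FRCs and 417, 391 or 496 higher in DN cells, and leaving out DN replicate 1 or 3 gave 597 or 628 genes higher in FRCs and 555 or 591 higher in DN cells. Nearly all calls were also made without DN replicate 2 (99.6% of those higher in FRCs and 99.9% of those higher in DN cells). With strips centred on their medians instead, which shifted the median of all genes to 0.14, 1442 genes were higher in FRCs and 873 in DN cells, and DN cells held 37.7% of the calls. In 117 of 1036 called genes with several probes, another probe had the opposite sign.

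The largest differences in favor of FRCs were those of *Col17a1*, the collagen of hemidesmosomes (6.68, 103-fold), *Lrrc15*, a leucine-rich repeat membrane protein of activated fibroblasts (6.48, 89.0-fold), and *Hc*, complement component 5 (5.84, 57.3-fold). *Lrrc15* had 13.06, 13.20 and 13.29 in FRCs and 6.83, 6.64 and 6.65 in DN cells, with the smallest adjusted p of these (5.9e-05). Its replicates were tight in both groups, DN replicate 2 included. *Trp63*, *Krt17*, *Igfbp2*, *Wnt2*, *Krt14*, *Hgf* and *Mfap4* were also among the 12 genes of the naming rule, with differences of 5.74 for *Trp63* down to 4.64 for *Mfap4*. The other members of the 12, *Krt5* and *Hmcn1*, an extracellular matrix protein of the fibulin family, were not above background in any DN replicate, so that only bounds can be given (at least 19.9-fold and at least 16.1-fold higher in FRCs). Some differences rest on a group with few replicates above background. Among named genes higher in FRCs, 1 of 3 DN replicates was above background for *Col17a1*, *Igfbp2*, *Col4a3*, *Cthrc1*, *Mmp16*, *Jag2*, *Ccl8*, *Crabp1* and *Ptger3*, and 2 of 3 were for *Hc*, *Trp63*, *Wnt2*, *Hgf*, *Omd*, *Pgm5*, *Masp1* and *Colec12*.

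The largest differences in favor of DN cells were those of *Ido1*, the tryptophan-degrading dioxygenase (-5.57, 47.5-fold lower in FRCs), *Ephx3*, an epoxide hydrolase (-5.21, 36.9-fold), and *Nrarp*, a feedback inhibitor and target of Notch signaling (-4.90, 29.9-fold). *Ido1* had 6.62, 6.70 and 7.46 in FRCs and 12.06, 14.18 and 11.25 in DN cells, with adjusted p = 0.0044. DN replicate 2 was the highest of all 6 replicates, and the groups were far apart. *Cxcl15*, *Ffar4*, *Mbp*, *Dmbt1*, *Krt19*, *Gipc2*, *S100a8*, *Cwh43* and *Upk2* followed, with differences of -4.89 for *Cxcl15* to -4.33 for *Upk2*. Several of these are known from secretory epithelia, among them *Dmbt1*, a mucosal scavenger protein, and *Upk2*, a uroplakin. Their adjusted p-values ran from 4.7e-04 for *Cwh43* to 0.015 for *S100a8*. Among named genes higher in DN cells, 1 of 3 FRC replicates was above background for *Cxcl15*, *Ffar4*, *Gipc2*, *Higd1b*, *Casq2*, *P2rx1*, *Pde1c*, *Mal*, *S100a9* and *Lipe*, and 2 of 3 were for *Upk2*, *Timp4*, *Myocd*, *Fa2h*, *Was*, *Vav1*, *Csf1r* and *Cidea*.

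**Figure D2:**
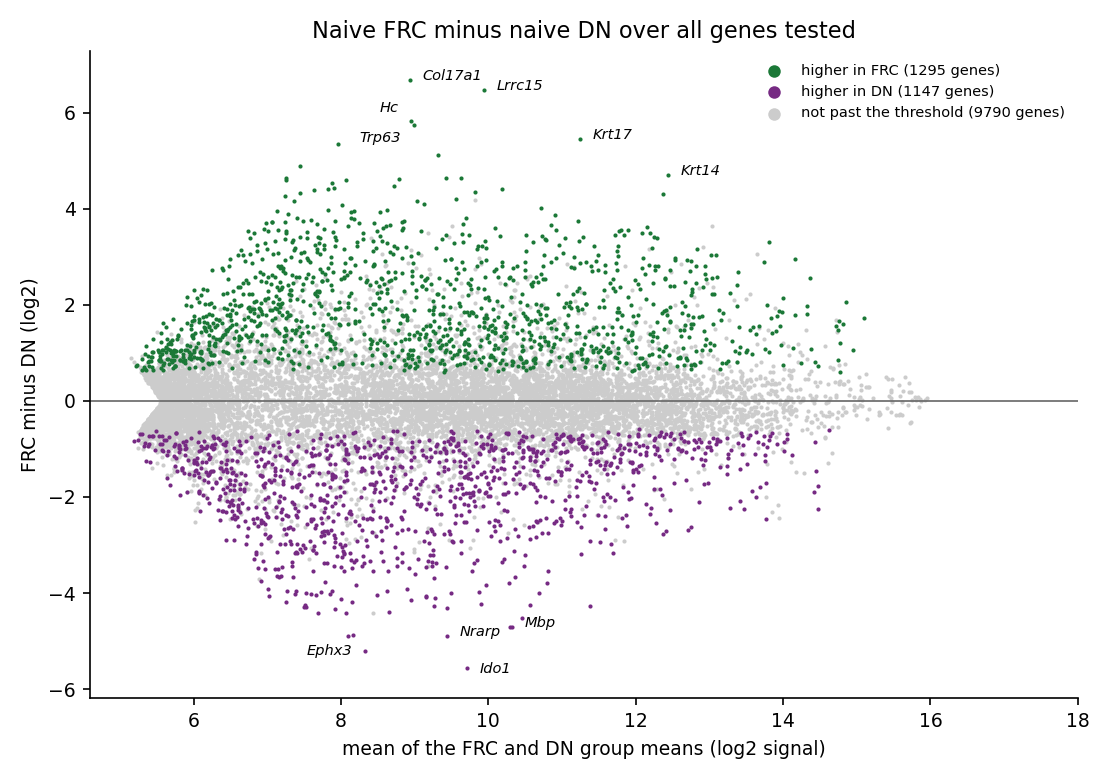
FRC minus DN difference (log2) against the mean of both group means (log2 signal) for all 12232 genes tested in naive mice. Green points are the 1295 genes higher in FRCs, purple points the 1147 genes higher in DN cells and grey points the rest, and the genes with the largest differences in each direction include Col17a1 and Lrrc15 for FRCs and Ido1 for DN cells.

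Matrix genes were mostly higher in FRCs. Of 10 tested fibrillar collagen genes 8 were higher in FRCs and none in DN cells (limma, 0 also at an unadjusted p under 0.05), with a list median of 2.37 against -0.05 over all genes. *Col1a1* and *Col1a2* encode the chains of collagen I. *Col1a1* had 14.66, 14.54 and 14.41 in FRCs and 11.14, 12.03 and 11.32 in DN cells, a difference of 3.04 (SE 0.27, adjusted p = 0.0012), and *Col1a2* was higher by 3.57 (adjusted p = 0.0030). *Col3a1* (2.98), *Col5a1* (2.14), *Col5a2* (3.70), *Col5a3* (2.60), *Col27a1* (2.07) and *Col24a1* (at least 2.20-fold) were also higher in FRCs. The remaining members, *Col11a1* (-0.35) and *Col11a2* (-0.51), did not pass.

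Basement membrane genes followed the same direction. Of 9 basement membrane collagen genes 7 were higher in FRCs and none in DN cells, where 0 had an unadjusted p under 0.05 (median 1.47). Among the collagen IV chains, *Col4a1* (1.20), *Col4a2* (1.57), *Col4a3* (2.22), *Col4a4* (1.47) and *Col4a5* (1.38) were higher in FRCs. *Col15a1* had the largest difference of this list (3.50, adjusted p = 0.0012), and *Col18a1* was higher by 1.77. *Col4a6* (1.10, adjusted p = 0.060) and *Col7a1* (0.80, adjusted p = 0.42) did not pass. Of 13 genes for laminins, nidogens and perlecan, 10 were higher in FRCs and none in DN cells, where 1 had an unadjusted p under 0.05 (median 2.04). *Lama1* was above background in FRCs only and at least 9.17-fold higher there, and *Lama2* (3.66), *Nid1* (2.83), *Lamc3* (2.28) and *Hspg2*, which encodes perlecan (2.00), were higher too.

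Of 41 matricellular and elastic fiber genes, 29 were higher in FRCs and none in DN cells, where 0 had an unadjusted p under 0.05 (median 2.39). For 3 of the 41 no DN replicate was above background, and for 0 no FRC replicate was. *Fn1*, which encodes fibronectin, had 14.60, 14.62 and 14.32 in FRCs and 9.89, 11.39 and 9.36 in DN cells, a difference of 4.30 (SE 0.50, adjusted p = 0.0029). The DN replicates lay at least 2 log2 units below the FRC replicates, with replicate 2 as the highest. *Mfap4* and *Mfap5*, microfibril proteins, were higher by 4.64 and 3.50, *Cthrc1* by 4.32, *Tnxb* by 2.98, and *Vcan*, which encodes versican, was at least 7.51-fold higher. Of 11 small leucine-rich proteoglycan genes 6 were higher in FRCs and 1 in DN cells (median 2.27). *Kera* (at least 7.66-fold), *Omd* (2.59), *Podn* (3.32), *Ogn* (2.27), *Lum* (2.89) and *Prelp* (1.42) were higher in FRCs. *Chad*, which encodes chondroadherin, ran the other way, with 7.90, 7.21 and 7.44 in FRCs and 11.71, 8.84 and 12.30 in DN cells (-3.43, adjusted p = 0.036). *Fmod* (2.83, adjusted p = 0.063), *Bgn* (1.44, 0.068), *Dcn* (0.57, 0.12) and *Ecm2* (0.21, 0.74) did not pass.

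Of 16 other collagen genes 8 were higher in FRCs and none in DN cells, where 1 had an unadjusted p under 0.05 (median 1.67), among them *Col14a1* (3.42), *Col6a2* (2.07) and *Col6a1* (1.56). Of 16 matrix metallopeptidase and TIMP genes 7 were higher in FRCs and 1 in DN cells (median 1.21). *Mmp2*, a gelatinase, was higher by 2.56, *Mmp16* by 2.95, *Mmp11* by 2.34, *Timp1* by 2.76 and *Timp2* by 1.88. *Timp4* was the member higher in DN cells (-2.28, adjusted p = 0.026). *Timp3* had a difference of 0.05 (adjusted p = 0.88).

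**Figure D3:**
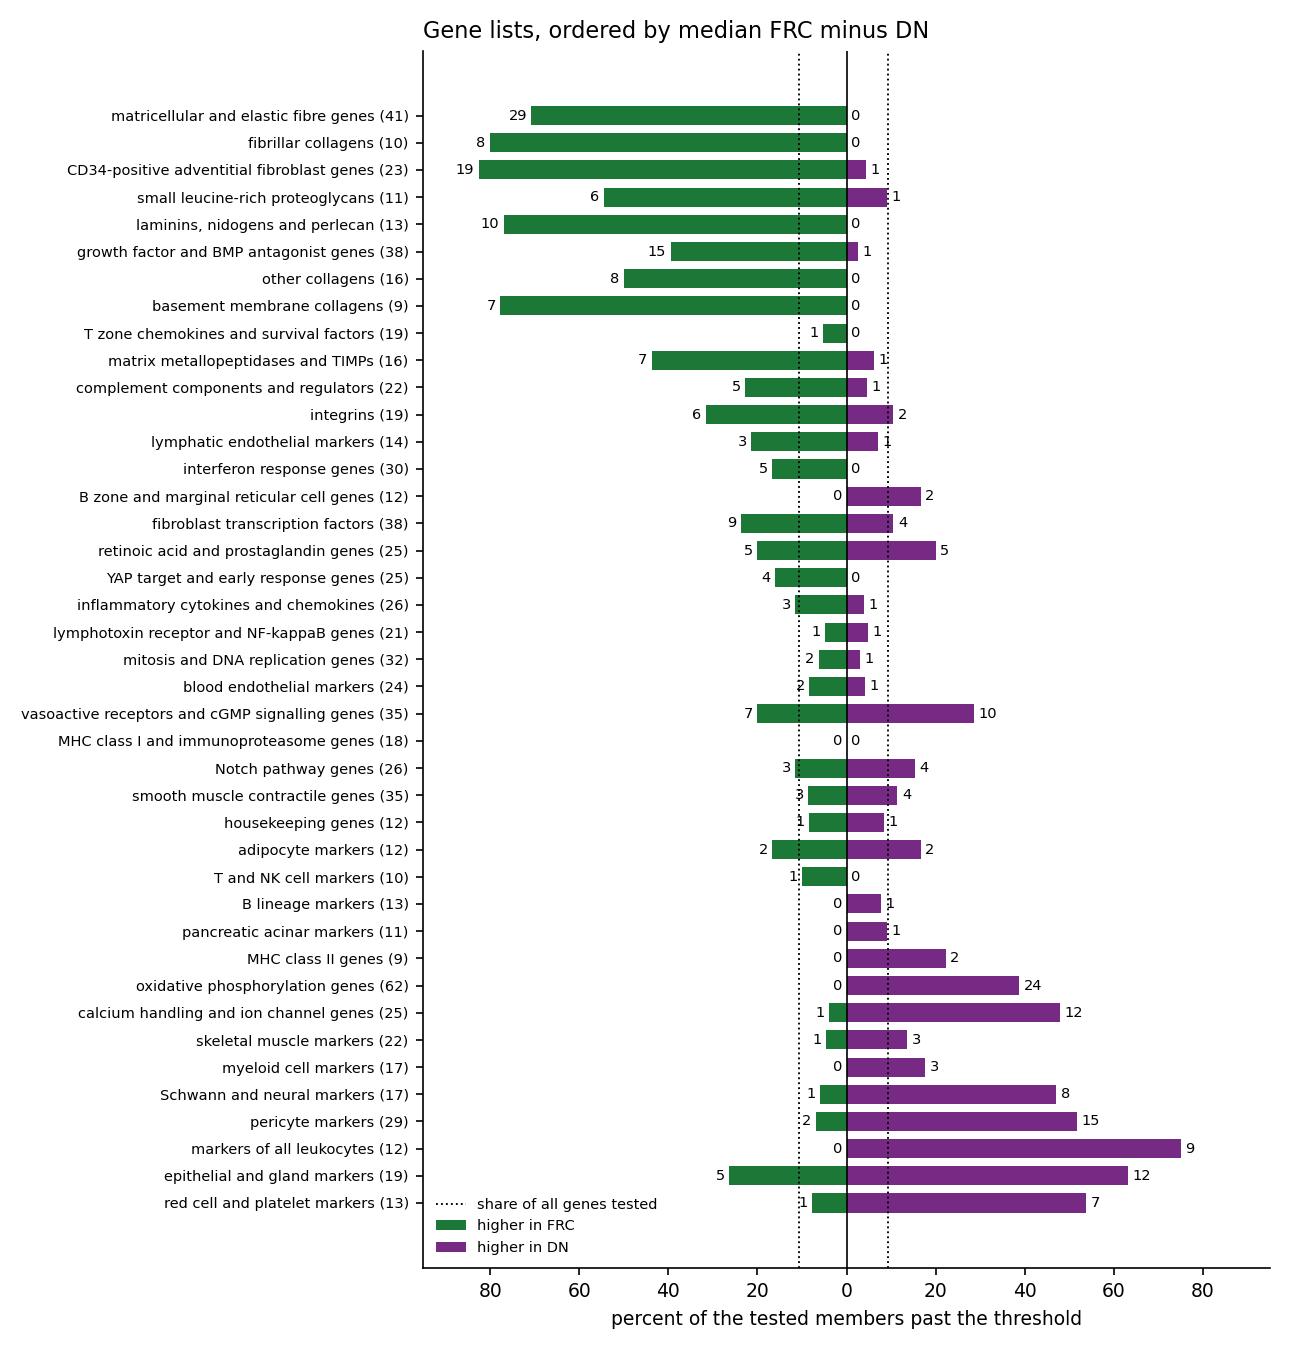
Share of the tested members of each gene list (number tested in parentheses) that was higher in FRCs (green bars to the left) or in DN cells (purple bars to the right), with the number of genes at the end of each bar and the share over all genes as dotted lines (10.6% and 9.38%). Lists are ordered by their median FRC minus DN difference, with matrix lists at the top and pericyte, leukocyte, epithelial and red cell markers at the bottom.

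Genes of CD34-positive adventitial fibroblasts, which surround larger vessels and the capsule, were higher in FRCs for 19 of 23 tested members (median 2.30), and 1 was higher in DN cells. *Cd34* itself had 11.82, 11.74 and 11.12 in FRCs and 8.42, 9.19 and 7.54 in DN cells, a difference of 3.18 (SE 0.44, adjusted p = 0.0052). The groups did not overlap, as in 45.5% of all genes tested. *Igfbp6* (3.62), *Wnt2* (5.12), *Cd248* (2.58), *Pi16* (2.94), *Penk* (2.30) and the receptor gene *Pdgfra* (2.80, adjusted p = 0.025) were higher in FRCs. *Aldh1a3*, a retinal dehydrogenase, was the member higher in DN cells (-1.73, adjusted p = 0.026).

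Of 38 growth factor and BMP antagonist genes, 15 were higher in FRCs and 1 in DN cells (median 1.94). *Hgf*, which encodes hepatocyte growth factor, had 11.86, 11.68 and 11.72 in FRCs and 5.37, 8.89 and 7.04 in DN cells, a difference of 4.65 (SE 0.80, adjusted p = 0.011). The FRC replicates were within 0.2 log2 units and the DN replicates spread over more than 3. The secreted Wnt modulators *Sfrp1* (3.32), *Sfrp2* (4.63) and *Sfrp4* (at least 4.57-fold), the BMP antagonist *Chrd* (2.70), *Bmp4* (3.29) and the activin antagonist *Fst* (2.88) were also higher in FRCs. *Wnt4* was higher in DN cells (-2.05, adjusted p = 0.0047). *Grem1*, a BMP antagonist of reticular cells, had 9.14, 8.94 and 11.07 in FRCs and 5.99, 10.29 and 5.74 in DN cells and did not pass (2.38, adjusted p = 0.21).

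Of 38 fibroblast transcription factor genes 9 were higher in FRCs and 4 in DN cells (median 0.49), and 20 and 5 were without DN replicate 2 (median 0.69). The share in FRCs was above the 10.6% and 24.3% of all genes. That in DN cells was near their 9.38% with all replicates and under their 26.4% without DN replicate 2. *Osr1* (3.53), *Osr2* (2.21), *Tcf4* (1.54), *Twist1* (1.85) and *Klf4* (1.38) were higher in FRCs. *Hopx* (-2.08), *Myocd* (-3.43), *Heyl* (-1.66) and *Hey1* (-1.25) were higher in DN cells. *Myocd* encodes myocardin, the coactivator of smooth muscle genes, and had 5.71, 5.16 and 6.00 in FRCs and 8.65, 9.75 and 8.77 in DN cells (adjusted p = 0.0022). It lay near background in FRCs and well above it in every DN replicate.

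Of 29 tested pericyte markers 2 were higher in FRCs and 15 were higher in DN cells (median -1.37). *Itga7*, the laminin-binding integrin subunit of muscle and pericytes, had 6.04, 5.97 and 6.14 in FRCs and 10.03, 10.17 and 10.50 in DN cells, a difference of -4.19 (SE 0.19, adjusted p = 3.4e-04). Each group spanned less than 0.5 log2 units and DN replicate 2 lay with the other DN replicates. *Rgs4* (-4.26), a regulator of G protein signaling, *Higd1b* (-4.01), *Cox4i2* (at least 10.9-fold lower in FRCs) and *Casq2* (-3.46) were further members with small p-values. *Mcam* (-3.46), *Rgs5* (-2.58), *Notch3* (-2.39), *Kcnj8* (-1.91) and *Cspg4*, which encodes NG2 (-1.37), were higher in DN cells too. *Postn* and *P2ry14* were the members higher in FRCs (at least 4.59-fold and 1.78), and *Pdgfrb* was measured in both gates with a difference of 0.60 (adjusted p = 0.090).

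Of 25 calcium handling and ion channel genes 1 was higher in FRCs and 12 were higher in DN cells (median -0.91), and 2 and 15 of 23 were without DN replicate 2. For 7 of the 25 no FRC replicate was above background, so that they entered through DN cells only. Every member was above background in at least 1 DN replicate. *Stac*, which anchors voltage-gated calcium channels, had 5.12, 5.23 and 5.14 in FRCs and 9.22, 9.55 and 9.30 in DN cells, at least 13.8-fold lower in FRCs (adjusted p = 3.3e-04). It was at background in every FRC replicate. *Cacna1h*, a T-type calcium channel (-3.17), *Kcnab1*, a potassium channel subunit (-3.35), *Trpc6*, a cation channel (at least 4.08-fold lower in FRCs), and *Ano1*, a chloride channel (-1.63), were higher in DN cells. *Cacna2d1* was higher in FRCs (1.69, adjusted p = 0.018).

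Of 35 genes for receptors of vasoactive signals and for cGMP signaling 7 were higher in FRCs and 10 in DN cells (median 0.07), and 13 and 10 of 37 were without DN replicate 2 (median 0.20). The share in FRCs was above the 10.6% and 24.3% of all genes. That in DN cells was above their 9.38% with all replicates and near their 26.4% without DN replicate 2. *P2rx1*, the ATP-gated channel of smooth muscle, had 5.61, 5.23 and 5.40 in FRCs and 9.47, 9.56 and 9.06 in DN cells (-3.95, adjusted p = 4.5e-04), with no overlap and with 1 of 3 FRC replicates above background. *Ednrb*, an endothelin receptor, was higher in DN cells (-3.99), as were *Olfr78* (at least 2.73-fold lower in FRCs) and *Pde1c* (-1.70). *Npr2*, a natriuretic peptide receptor (2.49), *Rgs2* (at least 2.93-fold), *P2ry1* (2.41) and *F2r*, the thrombin receptor (1.65), were higher in FRCs.

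Of 26 Notch pathway genes 3 were higher in FRCs and 4 in DN cells (median 0.03), shares near the 10.6% and 9.38% of all genes. The counts were 7 and 6 without DN replicate 2 (median 0.21), near the 24.3% and 26.4% of all genes. *Nrarp*, *Heyl*, *Notch3* and *Hey1* were the genes higher in DN cells, a receptor and targets of the pathway. *Nrarp* had 7.30, 6.45 and 7.23 in FRCs and 10.91, 13.01 and 11.77 in DN cells (adjusted p = 0.0025). The ligand gene *Jag2* (2.37), *Numbl* (1.69) and the sheddase gene *Adam17* (1.14) were higher in FRCs.

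**Figure D4:**
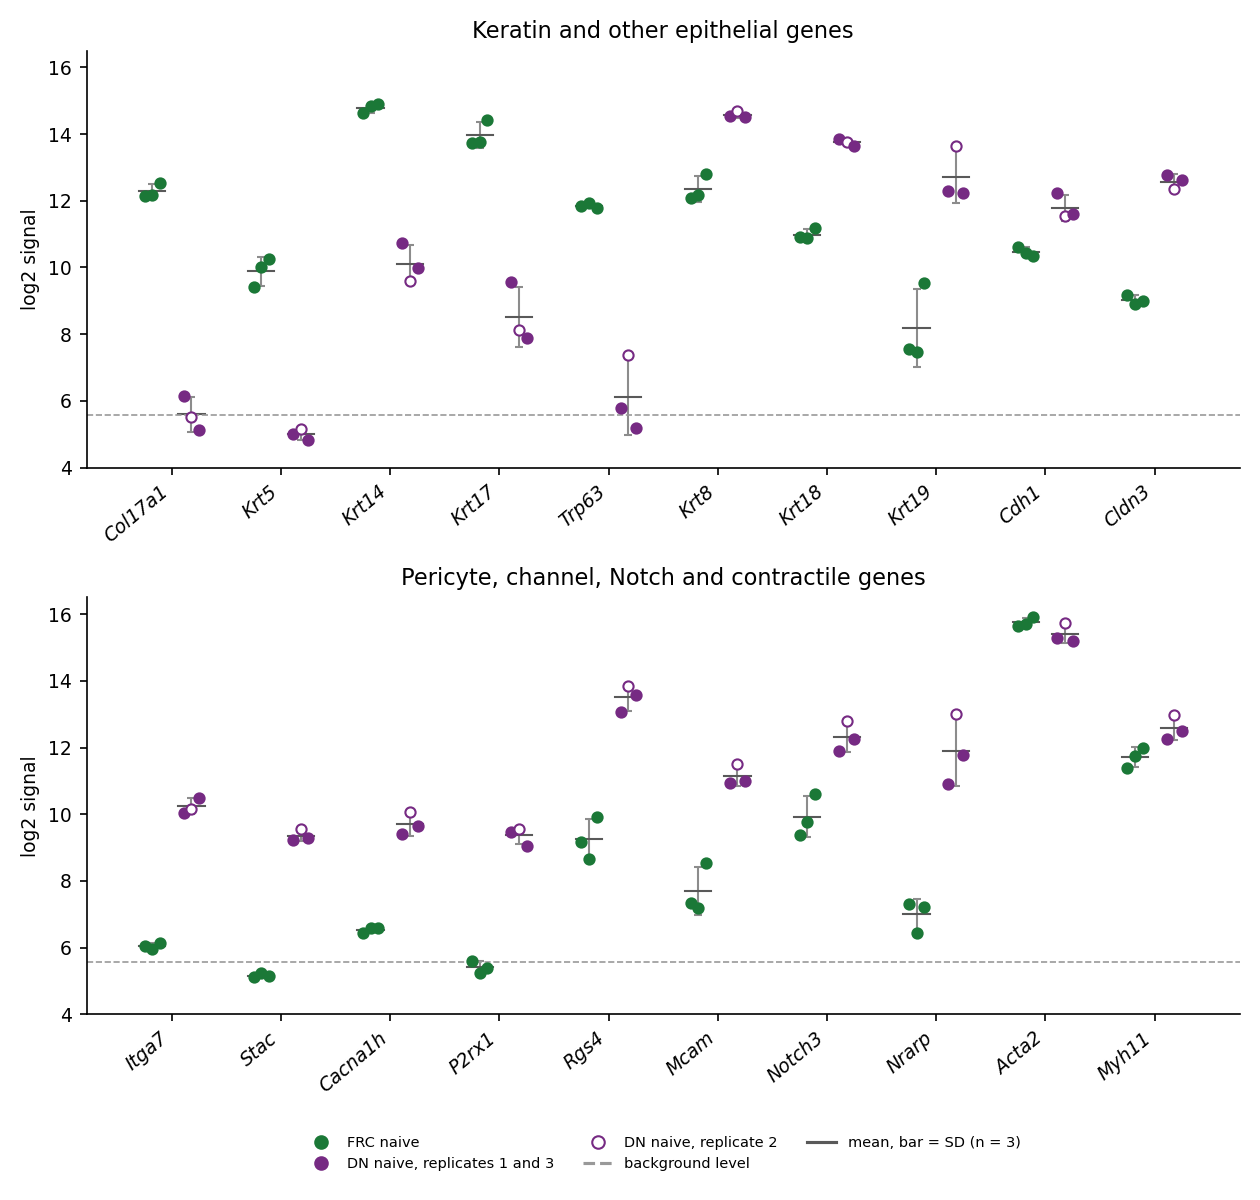
Log2 signal of keratin and other epithelial genes (upper panel) and of pericyte, channel, Notch and contractile genes (lower panel) in each naive FRC replicate (green, left) and DN replicate (purple, right; replicate 2 open), with group mean and SD (n = 3) and the background level as a dashed line. Basal keratin genes were higher in FRCs, and luminal keratin genes and pericyte genes were higher in DN cells, while Acta2 overlapped.

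Of 35 smooth muscle contractile genes 3 were higher in FRCs and 4 in DN cells, with a median of -0.06, again near the shares of all genes. *Myh11*, the smooth muscle myosin heavy chain, averaged 11.72 ± 0.30 in FRCs and 12.59 ± 0.37 in DN cells (SD, n = 3 each), with no overlap of the replicates (-0.87, 95% interval -1.51 to -0.24, adjusted p = 0.062). *Ppp1r14a*, an inhibitor of myosin phosphatase (-2.40), *Jph2*, which couples calcium stores to the membrane (-2.32), *Sorbs2* (-2.41) and *Pln* (at least 1.39-fold lower in FRCs) were higher in DN cells. *Pgm5* (2.32), *Csrp2* (1.06) and *Fhl1* (1.40) were higher in FRCs. The counts without DN replicate 2 were 12 and 8 (median 0.22), with *Acta2* among the 12.

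Many contractile genes carry the CArG box, the binding sequence of serum response factor, with which myocardin acts. The 250 bases upstream of the start site were searched for it on both strands in RefSeq promoter sequences (GRCm38.p6). Only exact matches to CCWWWWWWGG, where W is A or T, were counted. Boxes with a mismatch or further from the start site were therefore not found. It was found for 8 of the 66 genes of the contractile, calcium and pericyte lists that had a promoter entry (12.1%; 84 members tested), and for 439 of 27025 genes with an entry (1.62%). It was present for 7 of 31 contractile genes, 1 of 21 calcium and channel genes and none of 19 pericyte genes. The 8 genes were *Cnn2*, *Fhl1*, *Fhl2*, *Ldb3*, *Myl6*, *Myl9*, *Trpc6* and *Vcl*, and only *Fhl1* and *Trpc6* passed the test, on opposite sides. Both windows are shown because these called genes with a box ran in opposite directions. The capitals mark the box, on the plus strand of chrX:56779433-56779682 and chr9:8543892-8544141.
Fhl1: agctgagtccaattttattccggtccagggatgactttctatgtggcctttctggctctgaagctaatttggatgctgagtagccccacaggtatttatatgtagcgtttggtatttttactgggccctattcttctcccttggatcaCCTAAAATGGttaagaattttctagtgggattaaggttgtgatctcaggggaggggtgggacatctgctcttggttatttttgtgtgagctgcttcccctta
Trpc6: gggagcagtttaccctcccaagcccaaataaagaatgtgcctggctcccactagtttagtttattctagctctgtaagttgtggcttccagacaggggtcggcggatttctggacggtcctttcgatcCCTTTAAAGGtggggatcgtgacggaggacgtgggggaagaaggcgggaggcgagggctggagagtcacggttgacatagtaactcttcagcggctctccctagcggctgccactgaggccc
*Fhl1* had 13.02, 12.92 and 12.74 in FRCs and 11.12, 12.30 and 11.05 in DN cells (adjusted p = 0.039), with its box starting 102 bases before the start site. *Trpc6* had 5.17, 5.12 and 5.54 in FRCs and 7.70, 7.74 and 7.36 in DN cells (adjusted p = 0.0013), with its box starting 122 bases before. A match in these letters is a description of the window only.

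Epithelial genes ran in both directions. Of 19 tested epithelial and gland markers, 5 were higher in FRCs and 12 in DN cells (median -1.88). The genes higher in FRCs were *Krt5*, *Krt14*, *Krt15*, *Krt17* and *Trp63*, keratins and a transcription factor of basal epithelial cells. *Krt14* had 14.63, 14.83 and 14.90 in FRCs and 10.72, 9.58 and 9.97 in DN cells, a difference of 4.70 (SE 0.31, adjusted p = 5.5e-04). *Krt5* had 9.40, 10.00 and 10.24 in FRCs and was not above background in any DN replicate, at least 19.9-fold higher in FRCs.

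The genes higher in DN cells included *Krt7*, *Krt8*, *Krt18* and *Krt19*, keratins of simple and luminal epithelium, and the junction genes *Cldn3*, *Cldn4* and *Cdh1*. *Krt18* had 10.90, 10.87 and 11.19 in FRCs and 13.86, 13.76 and 13.65 in DN cells (-2.77, SE 0.18, adjusted p = 5.5e-04). Both groups were tight and every DN replicate was above every FRC replicate, replicate 2 included. *Cldn3* (-3.54), *Elf3*, an epithelial transcription factor (-2.13), *Esrp1*, an epithelial splicing regulator (-2.10), *Prom1* (at least 3.17-fold lower in FRCs), *Muc1* (-1.72) and *Ltf*, which encodes lactoferrin (-2.15), were further members higher in DN cells. *Epcam*, *Wap* and *Csn2* were not above background in either group. The mean log2 signal over the tested members of the list was 10.36 to 10.80 in FRCs and 10.48 to 10.84 in DN cells. The part of epithelial cells in these results was not tested.

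Several lists of markers of other cell types had more genes higher in DN cells than in FRCs. Of 17 Schwann and neural markers 1 was higher in FRCs and 8 in DN cells (median -1.07), with list means of 7.63 to 7.75 in FRCs and 9.07 to 9.41 in DN cells. For 3 of the 17 no FRC replicate was above background, and for 0 no DN replicate was. *Mbp*, a major myelin protein, had 8.75, 7.23 and 7.92 in FRCs and 11.76, 13.47 and 12.81 in DN cells (-4.71, adjusted p = 0.0027). *Mal* (-3.67), *Fa2h* (-3.95), *Ugt8a* (at least 10.4-fold lower in FRCs) and *Gfra3* (-3.43) were higher in DN cells, and *S100b* and *Pmp2* were not above background in either group. *Egr2*, a factor of myelinating cells that is also an early response gene, was the member higher in FRCs (1.84).

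Of 12 tested markers of all leukocytes none was higher in FRCs (limma, 0 also at an unadjusted p under 0.05) and 9 were higher in DN cells (median -1.70). Their mean log2 signal was 6.55 to 7.14 in FRCs and 8.42 to 8.75 in DN cells. *Was* (-2.78), *Ptpn6* (-2.13), *Cytip* (-2.66), *Lcp1* (-3.09) and *Vav1* (-1.10) had the smallest adjusted p-values, and the defining marker *Ptprc* as well as *Hcls1* and *Cd48* stayed at background in both gates. Of 17 myeloid markers none was higher in FRCs (0 at an unadjusted p under 0.05) and 3 were higher in DN cells (median -0.96; list means 5.97 to 6.19 in FRCs and 6.98 to 8.05 in DN cells), the neutrophil genes *S100a8* (-4.42) and *S100a9* (-4.29) and the macrophage receptor gene *Csf1r* (-0.86). Of 13 B lineage markers none was higher in FRCs (1 at an unadjusted p under 0.05) and 1 in DN cells, *Ms4a1* (at least 1.03-fold lower in FRCs), and of 10 T and NK cell markers 1 was higher in FRCs, *Thy1* (2.57, adjusted p = 5.5e-04), which fibroblasts also carry. In the B lineage list and the T and NK cell list, the shares were under the 10.6% and 9.38% of all genes. The list means were 7.60 to 7.76 in FRCs and 7.82 to 7.98 in DN cells for B lineage markers, and 7.05 to 7.30 in FRCs and 6.99 to 7.73 in DN cells for T and NK cell markers. No FRC replicate was above background for 2 markers of all leukocytes and 5 myeloid markers, which entered through DN cells only. Each member of these lists of leukocyte and myeloid markers was above background in at least 1 DN replicate.

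Of 13 red cell and platelet markers 1 was higher in FRCs and 7 in DN cells (median -1.92; list means 7.17 to 7.72 in FRCs and 8.85 to 9.0 in DN cells). *Sptb*, a spectrin of the red cell membrane, differed by -3.10. *Slc4a1*, the anion exchanger of red cells, was at least 4.67-fold lower in FRCs, and *Alas2*, a heme synthesis enzyme, differed by -3.04 (adjusted p = 0.020). *Itga2b* was the member higher in FRCs (3.06, adjusted p = 0.0020). Of 22 skeletal muscle markers 1 was higher in FRCs and 3 in DN cells (median -0.93), against 10.6% and 9.38% of all genes. *Acta1*, the skeletal actin, had 6.26, 6.25 and 6.14 in FRCs and 12.46, 7.14 and 12.31 in DN cells (-4.42, adjusted p = 0.063). DN replicates 1 and 3 were high and DN replicate 2 was close to the FRC replicates, and without replicate 2 the difference was -6.17 (adjusted p = 4.7e-05), with 3 of 22 members higher in FRCs and 14 in DN cells. *Tcap* (at least 9.99-fold lower in FRCs), *Myl1* (-3.80) and *Mb* (-2.09) were the members higher in DN cells with all replicates. The list means were 5.98 to 6.15 in FRCs, against 8.31, 6.40 and 7.86 in DN cells. For 7 of 22 skeletal muscle markers and 3 of 13 red cell and platelet markers, no FRC replicate was above background. No DN replicate was above background for 1 and 0 of them. The part of these other cell types in the FRC minus DN differences was not tested.

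Leaving DN replicate 2 out, when 24.3% of all genes were higher in FRCs and 26.4% in DN cells, changed the counts of the lists above. The counts in FRCs and DN cells were then 34 and 0 of 41 matricellular genes, 19 and 1 of 23 adventitial fibroblast genes, 28 and 2 of 38 growth factor genes, 6 and 16 of 29 pericyte markers, 6 and 12 of 19 epithelial markers and 3 and 11 of 18 Schwann and neural markers. Of 10 fibrillar collagen genes, 8 were then higher in FRCs and 1 in DN cells. The counts were 8 and 0 of 9 basement membrane collagens, 11 and 0 of 13 genes for laminins, nidogens and perlecan, 13 and 1 of 17 other collagens, 9 and 1 of 11 small leucine-rich proteoglycans and 10 and 2 of 16 metallopeptidases and TIMPs. They were 0 and 9 of 11 markers of all leukocytes, 2 and 7 of 15 myeloid markers, 4 and 5 of 13 B lineage markers, 1 and 1 of 10 T and NK cell markers and 1 and 8 of 12 red cell and platelet markers.

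Of 24 blood endothelial markers 2 were higher in FRCs, *Tek* (3.38, adjusted p = 0.0045) and *Ly6c1* (2.82), and 1 was higher in DN cells, *Esam* (-2.94), which pericytes also carry (list median 0.18). Both shares were under the 10.6% and 9.38% of all genes. The counts of this list were 8 and 1 without DN replicate 2 (median 0.64). Their list means were 9.69, 8.01 and 8.96 in FRCs and 8.53, 9.65 and 7.47 in DN cells, so that the replicates varied within both groups. Of 14 lymphatic endothelial markers 3 were higher in FRCs and 1 in DN cells (median 0.65; 5 and 2 without DN replicate 2, median 1.22), with list means of 8.36 to 9.33 in FRCs and 7.24 to 8.81 in DN cells. Over all genes the shares were 10.6% and 9.38%, and 24.3% and 26.4% without DN replicate 2. The defining marker *Lyve1* had 5.87, 4.99 and 8.68 in FRCs and 5.18, 9.68 and 5.25 in DN cells, high in FRC replicate 3 and DN replicate 2.

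The results on chemokine and survival genes turned on DN replicate 2. Of 19 T zone chemokine and survival factor genes, 1 was higher in FRCs, *Pdpn*, and none in DN cells (limma, against 7 and 0 at an unadjusted p under 0.05), with a list median of 1.47. Both shares were under the 10.6% and 9.38% of all genes. *Pdpn* is the gate gene and neither a chemokine nor a survival factor, so that its direction was set by the sort. Without DN replicate 2, 16 of 19 were higher in FRCs, *Pdpn* among them, none in DN cells, and the median was 2.29. *Il7* had 10.84, 10.89 and 11.81 in FRCs and 5.70, 11.50 and 6.10 in DN cells, with a difference of 3.42 (SE 1.48, adjusted p = 0.14) and of 5.28 without replicate 2 (adjusted p = 9.7e-05). DN replicates 1 and 3 were near background and DN replicate 2 was within the FRC range.

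*Tnfsf13b*, which encodes the B cell survival factor BAFF, had 12.33, 12.62 and 12.74 in FRCs and 8.06, 13.14 and 8.12 in DN cells (2.79, adjusted p = 0.17, and 4.47 with adjusted p = 6.8e-05 without replicate 2). *Cxcl12* had 14.35, 14.35 and 14.87 in FRCs and 11.67, 15.35 and 12.16 in DN cells (1.47, adjusted p = 0.27, and 2.61 with adjusted p = 3.5e-04 without replicate 2). For both genes DN replicate 2 was the highest of all 6 replicates. *Ccl21a* had 14.74, 14.92 and 15.86 in FRCs and 10.90, 14.94 and 10.53 in DN cells (3.05, adjusted p = 0.10), and *Ccl21c* differed by 3.65 (adjusted p = 0.074). *Ccl21a* and *Ccl21c* are near-identical copies, so that their probes may not separate them.

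Of 12 B zone and marginal reticular cell genes none was higher in FRCs (limma, 1 at an unadjusted p under 0.05) and 2 were higher in DN cells, *Sox9* (-1.26, adjusted p = 0.013) and *Ltf* (-2.15, adjusted p = 0.015), neither of which is specific to these cells. *Cxcl13*, the chemokine of B cell follicles, had 12.82, 12.99 and 13.95 in FRCs and 8.80, 14.01 and 8.50 in DN cells (2.82, adjusted p = 0.19, and 4.61 with adjusted p = 1.7e-04 without replicate 2). *Madcam1* (1.73, adjusted p = 0.058), *Il33* (1.73, 0.20), *Bst1* (1.40, 0.19), *Cr2* (0.48, 0.14), *Tnfsf11* (0.79, 0.63), *Ch25h* (0.58, 0.72), *Mfge8* (0.50, 0.24), *Fcer2a* (-0.56, 0.23) and *Glycam1* (-0.49, 0.65) did not pass. Leaving out DN replicate 2 gave 7 members higher in FRCs and 2 in DN cells.

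Of 26 inflammatory cytokine and chemokine genes 3 were higher in FRCs and 1 in DN cells (median 0.37). The share in FRCs was near the 10.6% of all genes, and that in DN cells was under their 9.38%. *Ccl8* had 9.80, 9.91 and 9.71 in FRCs and 5.34, 6.79 and 5.37 in DN cells (3.98, SE 0.40, adjusted p = 0.0019), with FRC replicates within 0.2 log2 units. *Cxcl14* (3.02) and *Cx3cl1* (0.91) were higher in FRCs, and *Ccl5*, a chemokine of T and NK cells, was higher in DN cells (-2.11). Without DN replicate 2 the counts were 13 of 25 higher in FRCs and 4 in DN cells. Of 21 lymphotoxin receptor and NF-κB genes 1 was higher in FRCs, *Tnfaip2* (1.96), and 1 in DN cells, *Sod2* (-0.66, adjusted p = 0.048), and 10 and 1 were without DN replicate 2 (median 0.69). With all replicates both shares of this list were under those of all genes.

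Complement genes were higher in FRCs for 5 of 22 members and in DN cells for 1 (median 0.89), and for 12 and 6 without DN replicate 2 (median 1.04). The shares over all genes were 10.6% and 9.38% with all replicates. Without DN replicate 2 they were 24.3% and 26.4%, and the 6 of 22 in DN cells were near the latter. *Hc* (5.84, complement component 5), *Masp1* (3.44, adjusted p = 0.046), *Colec12* (1.83), *Cd55* (1.95) and *C7* (at least 1.42-fold) were higher in FRCs next to *Cfp* (0.90, adjusted p = 0.056) and *Cfb* (2.76, 0.092), which did not pass. *C5ar1* was higher in DN cells (at least 1.33-fold lower in FRCs). Of 30 interferon response genes 5 were higher in FRCs and none in DN cells, where 0 had an unadjusted p under 0.05 (median 0.63), with *Oas2* in front (3.65, adjusted p = 0.0016), followed by *Ifit3* (1.08), *Oasl2* (1.08), *Gbp3* (1.37) and *Ifit2* (1.82). Of the same 30 genes 19 were higher in FRCs and 1 in DN cells without DN replicate 2 (median 0.98). In both cases the share of this list in FRCs was above that of all genes, and its share in DN cells was under it. None of 18 MHC class I and immunoproteasome genes passed (limma, with 2 higher in FRCs and 2 in DN cells at an unadjusted p under 0.05, median 0.06), and 6 were higher in FRCs and 3 in DN cells without DN replicate 2. Of 9 MHC class II genes none was higher in FRCs (0 at an unadjusted p under 0.05) and 2 were higher in DN cells, *H2-DMa* (-1.54) and *Ctss* (at least 1.61-fold lower in FRCs). *H2-Ab1* (-0.22, adjusted p = 0.69), *H2-Aa* (-0.70, 0.26), *H2-Eb1* (-0.90, 0.069) and *Cd74* (-0.15, 0.80) did not pass, and the counts of the list were 0 and 3 without DN replicate 2.

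Of 25 retinoic acid and prostaglandin genes 5 were higher in each cell type (median 0.49), and 10 were higher in FRCs and 5 in DN cells without DN replicate 2 (median 0.74). *Ptgis*, the prostacyclin synthase, had 12.65, 12.75 and 12.74 in FRCs and 8.98, 9.45 and 7.66 in DN cells (4.01, SE 0.44, adjusted p = 0.0025). *Crabp1* (4.54), *Stra6*, a retinol transporter (at least 6.00-fold), *Nos1* (at least 6.29-fold) and *Ptger3* (2.68) were higher in FRCs. *Arg1*, the arginine-degrading enzyme, had 10.10, 9.93 and 10.47 in FRCs and 13.40, 12.53 and 13.52 in DN cells (-2.98, adjusted p = 0.0021), and *Ido1*, *Rdh5* (-1.46), *Crabp2* (-2.91) and *Aldh1a3* were higher there as well. Both amino acid-degrading enzymes, *Ido1* and *Arg1*, were thus higher in every DN replicate than in every FRC replicate. The groups did not overlap in 45.5% of all genes tested. The share of this list was above the 10.6% and 9.38% of all genes on both sides. Without DN replicate 2 it was above their 24.3% in FRCs and under their 26.4% in DN cells.

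Of 19 genes of the integrin list 6 were higher in FRCs and 2 in DN cells (median 0.66). On the FRC side were *Itgbl1* (3.48), which is integrin-like and not an integrin subunit, *Itga2b*, *Itga11*, a collagen receptor subunit (2.91), *Itgb5* (1.13) and *Itga5*, the fibronectin receptor subunit (1.85). *Itga7* and *Itgb6* (-2.70) were on the DN side. The counts were 10 and 4 of 20 without DN replicate 2. The share in FRCs was above the 10.6% and 24.3% of all genes. That in DN cells was near their 9.38% with all replicates and under their 26.4% without DN replicate 2. Of 25 YAP target and early response genes 4 were higher in FRCs and none in DN cells, where 1 had an unadjusted p under 0.05 (median 0.42), namely *Klf2* (1.75), *Egr2*, *Klf4* and *Ccn2* (1.09, adjusted p = 0.050). Of these 25 genes 14 were higher in FRCs and 1 in DN cells without DN replicate 2 (median 0.70). In both cases the share of these genes in FRCs was above that of all genes, and their share in DN cells was under it.

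Of 62 oxidative phosphorylation genes none was higher in FRCs (limma, 0 also at an unadjusted p under 0.05) and 24 were higher in DN cells (median -0.79). The counts were 0 and 55 without DN replicate 2. Most of these differences were near 1 log2 unit, as for *Atp5a1* (-1.04), *Cycs* (-1.03) and *Cox5a* (-1.11, adjusted p = 0.013). *Cox7a1*, a muscle and fat isoform, had 7.57, 7.79 and 7.44 in FRCs and 11.50, 10.47 and 10.97 in DN cells (-3.38, adjusted p = 0.0011), and *Cox4i2* was the other isoform with a large difference. The list means were 11.24 to 11.41 in FRCs and 11.87 to 12.50 in DN cells. Of 32 mitosis and DNA replication genes 2 were higher in FRCs, *Plk1* (1.28) and *Cdk1* (0.89), and 1 in DN cells, *Mcm2* (-1.29). Adipocyte markers gave 2 genes of 12 on each side, *Lpl* (2.07) and *Scd1* (1.00) in FRCs and *Lipe* (-1.05) and *Cidea* (-1.84) in DN cells. Of 11 pancreatic acinar markers none was higher in FRCs (1 at an unadjusted p under 0.05) and 1 in DN cells, *Cela1* (-1.05). Among 12 housekeeping genes *Gusb* (0.89) was higher in FRCs and *Tfrc* (-1.92) in DN cells, and *Tbp* (0.01), *Eef1a1* (0.05) and *Rplp0* (-0.06) were close to 0 (list median -0.11). The counts without DN replicate 2 were 6 and 4 of 32 mitosis genes, 3 and 3 of 12 adipocyte markers, 1 and 4 of 10 acinar markers and 2 and 2 of 12 housekeeping genes. The shares over all genes were 10.6% and 9.38% with all replicates, and 24.3% and 26.4% without DN replicate 2. Both shares of the mitosis list were under these.

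The comparison was repeated in replicates that it had not used, 3 of FRCs and 3 of DN cells from tumor-bearing mice, which lay on the same slides. There 4010 of 12232 genes passed (32.8%), 2120 higher in FRCs and 1890 higher in DN cells. Of the genes higher in naive FRCs 843 of 1295 were also higher in tumor FRCs, and of those higher in naive DN cells 821 of 1147 were also higher in tumor DN cells. The sign was the same for 2354 of 2442 called genes (96.4%), against 9877 of 12232 genes (80.7%). *Pdpn* differed by 3.46 in tumor mice (adjusted p = 0.0019), *Ccl19* by 3.83 (8.8e-04), *Col17a1* by 5.52 (0.0011), *Itga7* by -3.83 (3.9e-04) and *Krt18* by -3.48 (4.5e-04). The T zone list had 15 of 19 members higher in tumor FRCs, the gate gene *Pdpn* among them, and none in tumor DN cells (median 2.39).

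**Figure D5:**
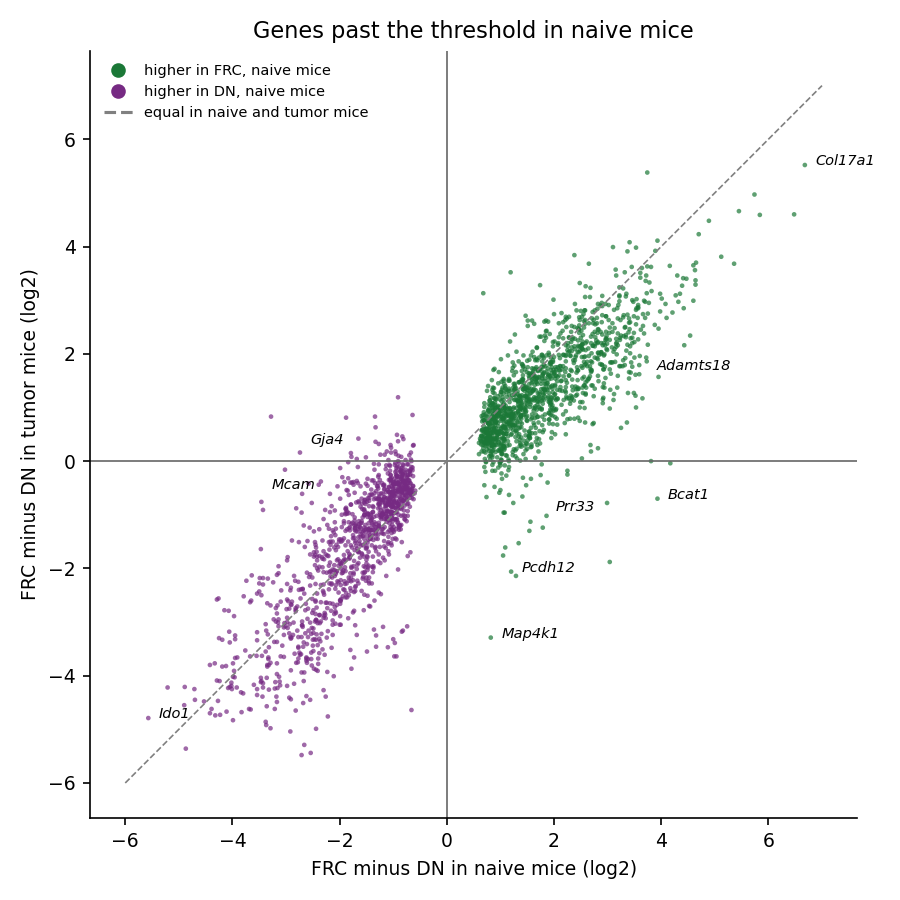
FRC minus DN difference in tumor mice (log2) against that in naive mice (log2) for the 2442 genes past the threshold in naive mice, green where higher in FRCs and purple where higher in DN cells, with the line of equal differences dashed. Most points keep their sign (2354 of 2442), and named genes such as Bcat1, Prr33 and Gja4 lie near or across 0 in tumor mice.

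Markers of other cell types moved with the tumor comparison. The mean over markers of all leukocytes was 7.49, 7.50 and 9.02 in tumor FRC replicates and 12.27, 11.67 and 9.38 in tumor DN replicates. The mean over blood endothelial markers was 8.42 to 9.12 in tumor FRCs and 10.01 to 10.55 in tumor DN cells. Of 24 blood endothelial markers 1 was higher in tumor FRCs and 13 in tumor DN cells. Their part in the tumor results was not tested. Of 29 pericyte markers 3 were higher in tumor FRCs and 10 in tumor DN cells (median -0.39, against -1.37 in naive mice).

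A test of the change itself, tumor minus naive, passed for 19 of 12232 genes (0.155%), and 1187 had an unadjusted p under 0.05. Of the 19 genes 7 had passed in naive mice, among them *Bcat1*, *Gja4*, *Frem1*, *Adamts18* and *Prr33*. *Bcat1*, a branched-chain aminotransferase, was higher in naive FRCs by 3.93 and differed by -0.70 in tumor mice (change -4.64, adjusted p = 0.034). *Bcat1* had 10.13, 10.33 and 10.86 in tumor FRCs and 12.05, 11.49 and 9.88 in tumor DN cells, against 10.27, 10.59 and 10.66 in naive FRCs and 6.80, 7.09 and 5.81 in naive DN cells. The DN replicates of tumor mice were all above those of naive mice, while the FRC replicates overlapped. *Gja4*, a connexin of arterial and mural cells, had a difference of -2.74 in naive mice and of 0.16 in tumor mice (change 2.90, adjusted p = 0.045). It had 12.29, 12.35 and 12.03 in tumor FRCs and 12.24, 12.19 and 11.75 in tumor DN cells, against 9.19, 9.03 and 10.10 in naive FRCs and 11.71, 12.85 and 11.99 in naive DN cells. The count of 19 was 133 without naive DN replicate 2 and 0 without any 1 of 6 other replicates (naive FRC 1 or 2, tumor FRC 1 or 2, tumor DN 1 or 2), where 808 to 1116 genes had an unadjusted p under 0.05.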

How the data were processed

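Sorted stromal cells were measured on Illumina mouse bead arrays. The deposited value table held log2 values for each probe and strip, made by the authors. Its background correction and normalization are not given in the sources used here, and neither is a genome build. The deposited bead files held 1 intensity per bead, and served only for bead counts and for alternatives. Values were quantile normalized over 48 strips, and both strips of a replicate were averaged. Probes had a gene symbol from the platform annotation: 34885 had 1 symbol, 18 had several and 10378 had none, and only the first were used. Of several kept probes of a gene, the brightest was used. Naive FRCs and DN cells were compared with limma 3.58.1 in R 4.3.3 (lmFit and eBayes), with Benjamini-Hochberg adjustment over 12232 genes at 0.05. The model had 4 residual and 2.68 prior degrees of freedom. The tumor comparison and the test of its change from naive mice used the same genes. Where no replicate of a group exceeded the background level of 5.57, a fold is given as "at least".

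Genes were named by rule: the gate and marker genes, the 12 largest differences in each direction among genes past the threshold without overlap, up to 5 members of each of 41 lists with the smallest adjusted p in each direction, and members of lists of 12 or fewer. Further named list members were chosen after their values were seen. The members and lists were chosen with earlier results of these data known. The scripts were tested on simulated data. Promoter sequences came from RefSeq (GRCm38.p6). Alternatives were other normalizations, filters, probe rules, strips, models and left-out replicates.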

Additional observations from a re-analysis of the deposited data

Results flagged for a closer look

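The FRC minus DN difference changed between tumor and naive mice, by the test of the change itself (limma, adjusted p from 0.021 to 0.045), for 19 genes. Each value below is the tumor difference minus the naive difference on the log2 scale. The change was negative for *Bcat1* (-4.64), *Prr33* (-3.77), *Mfng* (-3.45), *Aplnr* (-3.33), *Pcdh12* (-3.26), *Pilra* (-2.82), *Fam167b* (-2.65), *Frem1* (-2.38), *Ppp1r16b* (-1.92) and *Adamts18* (-1.87). It was positive for *Steap1* (3.50), *Hdac9* (3.11), *Dsc3* (3.00), *P2rx5* (2.93), *Gja4* (2.90), *Sorcs1* (2.79), *S1pr3* (2.73), *Slc1a2* (2.47) and *Gal3st1* (1.93). In naive blood endothelial cells the mean log2 signal was 12.44 for *Aplnr*, 11.46 for *Fam167b*, 11.95 for *Mfng*, 13.11 for *Pcdh12* and 11.54 for *Ppp1r16b*. The mean over blood endothelial markers was 8.42 to 9.12 in tumor FRCs and 10.01 to 10.55 in tumor DN cells, and its part in these changes was not tested.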

How the results depend on the processing

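The naive comparison gave 1295 genes higher in FRCs and 1147 higher in DN cells. A model of all 8 groups gave 2492 and 2690, array weights 3019 and 3255, and an unmoderated test 488 and 506. Leaving out 1 replicate at a time gave 398 (without FRC replicate 2) to 3019 (without DN replicate 2) higher in FRCs, and 391 (without FRC replicate 2) to 3289 (without DN replicate 2) higher in DN cells. The cause was not tested. With the replicate number as a block the counts were 921 and 744, and 1604 of the 2442 calls were kept. Same-numbered replicates deviated with correlations of 0.30, -0.10 and -0.01. With 3 replicates per group, these values cannot decide whether same-numbered samples were paired. No call turned its direction and stayed called under any of the alternatives run. Of 214 named genes past the threshold, 115 stayed past it under every alternative, and 182 did so under all but the left-out replicates, the block and the unmoderated test. Without FRC replicate 1, 2 or 3, 70, 77 or 52 of the named calls were lost. Without DN replicate 1 or 3, 49 or 44 were lost, against 0 without DN replicate 2.

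In tumor mice, leaving out 1 replicate gave 2573 (without DN replicate 2) to 5053 (without DN replicate 3) genes, and 2588 without FRC replicate 2, against 4010. These alternatives and those of the change between tumor and naive mice were chosen after seeing the data. The change passed for 19 genes, for 1 with the values as deposited, for 154 in the model of 8 groups, and for 0 to 216 with 1 replicate left out. It passed for 0 without naive FRC replicate 1 or 2, tumor FRC replicate 1 or 2 or tumor DN replicate 1 or 2, for 133 without naive DN replicate 2, for 36 without tumor FRC replicate 3 and for 216 without tumor DN replicate 3.

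Differences that turned their sign had not passed. With 1 replicate left out they ran from -0.57 to 0.17 for *Cd74*, -0.36 to 1.94 for *Ch25h*, -0.05 to 1.42 for *Col7a1*, -0.09 to 0.60 for *Ecm2*, -1.21 to 0.40 for *Glycam1*, -0.54 to 0.18 for *H2-Ab1*, -1.28 to 1.30 for *Lyve1*, -1.07 to 0.63 for *Pecam1*, -0.22 to 0.07 for *Rplp0*, -0.07 to 0.09 for *Tbp*, -0.05 to 0.20 for *Timp3* and -0.01 to 2.11 for *Tnfsf11*. Array weights gave 0.06 for *Cd74*, -0.09 for *Col7a1*, 0.29 for *Glycam1*, 0.02 for *H2-Ab1*, 0.20 for *Lyve1*, 0.52 for *Pecam1* and 0.07 for *Rplp0*. Median centring gave 0.07 for *Pecam1* and 0.09 for *Rplp0*, and the values as deposited gave -0.02 for *Eef1a1*. The bead files gave 0.03 for *Rplp0* and -0.05 for *Tbp*, with and without background correction, and the second strip gave -0.06 for *Tbp*. Signals near the background level of 5.57 limit low genes, and 3 replicates per group limit the precision.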
